A study of Mus musculus with 6 samples.

Results

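The growth hormone (GH) and insulin-like growth factor (IGF) axis was followed in the liver through 10 genes chosen by name: Ghr, Stat5a, Stat5b, Socs2, Cish, Igf1, Igfals, Igfbp3, Igfbp1 and Igfbp2. The names were chosen with earlier results of these data known. A probe set was taken when the array's annotation gave it exactly 1 gene symbol equal to one of these names, which gave 23 probe sets of the 45101 in the table and 10 genes of the 18194 it names. Mouse liver RNA was read on 3 Affymetrix arrays labelled as knockouts of sphingosine-1-phosphate (S1P) lyase and 3 labelled wild type (WT), and S1P lyase is the enzyme that irreversibly degrades the signalling lipid S1P. All 6 samples came from untreated mice of a mixed C57BL6 and 129sv background. No source used here states their age, sex or litter, the kind of knockout allele or the tissues it affects. Sex-linked transcripts, given below, read as female on all 6 arrays. Each sample has its own code but none is stated to be a separate animal, so p-values measure the spread between these samples, which may be technical. The question for these genes is how the liver's GH and IGF transcripts differ when the enzyme is missing.

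GH from the pituitary binds its receptor on hepatocytes, and the receptor's partner kinase JAK2 activates the transcription factors STAT5A and STAT5B. These switch on Igf1, whose product is the main circulating growth factor made by the liver, and Igfals, whose product holds IGF-I in the blood in a ternary complex with IGFBP-3. They also switch on Socs2 and Cish, whose products damp the same receptor. IGFBP-1 and IGFBP-2 bind IGF-I in smaller complexes, and Igfbp1 is a textbook gene repressed by insulin and raised in fasting, cell stress and inflammation.

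In the knockout livers, Igf1, both other genes of the ternary complex (Igfals and Igfbp3) and the GH receptor gene fell, while Igfbp1 rose. Igfals was 6.38-fold lower, Igfbp3 2.29-fold, Ghr 2.16-fold and Igf1 1.88-fold, and Igfbp1 was 4.15-fold higher, each read by its brightest probe set. Of the 10 genes, 4 fell and 1 rose (limma, p-values adjusted over all genes by Benjamini-Hochberg, threshold 0.05), where 8.09% of the 13370 genes tested fell and 10.5% rose, 18.6% in either direction. The 5 others, Stat5a, Stat5b, Socs2, Cish and Igfbp2, did not pass. The median difference of the 10 genes, knockout minus WT, was -0.60 log2, against -0.05 for all genes. The genes were chosen with earlier results of these data known, so these shares and medians describe the set and do not test it. The number of changed members was 3 when WT replicate 1 or 2 or knockout replicate 1 or 2 was left out.

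Sgpl1, which encodes the lyase, read 6.65, 6.90 and 6.71 log2 in WT and 2.46, 2.99 and 2.87 in knockout, so the labels matched the targeted gene's level in all 6 arrays. Arrays correlated at 0.983 to 0.99 within the knockout group, 0.979 to 0.983 within WT and 0.936 to 0.95 between groups. Probe sets near the 3' end read brighter relative to those near the 5' end in the knockouts, which measures how intact the labelled RNA was, by 0.45 log2 for Actb and 1.01 for Pcx. The groups did not overlap (two-sided exact permutation p = 0.1, which is as low as 3 arrays against 3 can give). Bacterial poly-A RNAs added before labelling read 0.75 log2 higher in knockout. Centring the arrays on them moves the median difference of all genes to -0.80 log2, and on that scale the differences were 1.31 for Igfbp1 and -3.42, -1.94, -1.86 and -1.66 for Igfals, Igfbp3, Ghr and Igf1. Calls on that scale are not read, because its fit replaced each gene's own spread with a shared one (SE 0.241 to 0.252 from percentile 5 to 95 of genes, against 0.103 to 0.261 as deposited). WT replicate 3 and knockout replicate 3, whose sample codes are consecutive, stood apart from the other arrays of their groups in Cyp2b9, a female-biased cytochrome P450 gene, at 2.69 and 2.59 log2 against 9.28 and 8.82 in the other WT livers and 8.23 and 7.81 in the other knockouts. The part of these array differences in the members' results was not tested. In RNA of whole liver, fewer cells of a type and less RNA per cell cannot be told apart.

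The promoter sequences of Igfals, Cish and Igfbp1 are shown because they hold the letters of 2 classical response elements of this axis, and because Igfals fell, Igfbp1 rose and Cish did not pass the test. They are the RefSeq sequences of the assembly GRCm38.p6, from 250 bases before to 50 bases after an annotated start, 5' to 3' on the gene's own strand, all of which is the plus strand here. Capitals mark TTCNNNGAA, the core that STAT5 binds (a palindrome, so the same on both strands), and CAAAACA, the core of the insulin response element, searched on both strands. RefSeq had an entry for 9 of the 10 genes (all but Socs2), with 15 start sites in all.
Igfals, first start, chr17:24877594-24877893: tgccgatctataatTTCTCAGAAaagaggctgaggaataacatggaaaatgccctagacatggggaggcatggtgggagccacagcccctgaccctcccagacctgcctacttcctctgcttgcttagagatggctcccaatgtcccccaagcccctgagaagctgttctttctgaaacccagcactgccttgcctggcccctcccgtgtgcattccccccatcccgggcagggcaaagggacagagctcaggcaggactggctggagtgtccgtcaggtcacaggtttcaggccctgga
Igfals, second start, chr17:24877981-24878280: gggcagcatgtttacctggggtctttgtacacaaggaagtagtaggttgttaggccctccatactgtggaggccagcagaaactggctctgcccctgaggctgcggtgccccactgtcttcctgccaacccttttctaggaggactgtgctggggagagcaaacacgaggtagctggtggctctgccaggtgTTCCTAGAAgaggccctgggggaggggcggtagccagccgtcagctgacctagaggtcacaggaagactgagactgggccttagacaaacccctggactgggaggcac
Cish, chr9:107296409-107296708: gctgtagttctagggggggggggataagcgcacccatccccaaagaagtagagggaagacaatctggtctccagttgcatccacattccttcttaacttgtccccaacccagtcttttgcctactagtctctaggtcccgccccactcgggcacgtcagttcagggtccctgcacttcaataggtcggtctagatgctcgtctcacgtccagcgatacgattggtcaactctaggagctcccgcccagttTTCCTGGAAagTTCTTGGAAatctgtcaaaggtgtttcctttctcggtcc
Igfbp1, chr11:7197537-7197836: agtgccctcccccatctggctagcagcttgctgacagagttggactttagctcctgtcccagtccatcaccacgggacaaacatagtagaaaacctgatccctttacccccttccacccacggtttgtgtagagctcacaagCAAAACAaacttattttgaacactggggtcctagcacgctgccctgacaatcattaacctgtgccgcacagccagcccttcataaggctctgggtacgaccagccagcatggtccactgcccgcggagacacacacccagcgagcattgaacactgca

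TTCNNNGAA was found in 3 of the 15 windows, those of 2 genes, and in 8.3% of the 32851 promoter windows of this length in the table. In Igfals it stood as TTCTCAGAA at bases -236 to -228 of the first start and as TTCCTAGAA at -58 to -50 of the second, where the start base is 0, and the remaining Igfals window held none. In Cish it stood side by side as TTCCTGGAA at 0 to 8 and TTCTTGGAA at 11 to 19. CAAAACA was found in 1 of the 15 windows, that of Igfbp1, at -108 to -102, and in 6.28% of all windows. A match of letters is a description of the sequence and does not show binding.

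Ghr, the receptor through which the liver senses GH, was lower in every knockout liver than in every WT liver on all 3 of its probe sets. The brightest read 10.85, 11.11 and 10.43 log2 in WT replicates 1 to 3 and 9.77, 10.04 and 9.25 in the knockouts, a difference of -1.11 (SE 0.23, limma adjusted p = 0.015). By its design name (s_at) this probe set may cross-hybridise with transcripts of related genes. The other Ghr probe sets fell further, the second by 1.58 log2 (SE 0.15), or 2.98-fold, and the last fell by 1.77 (SE 0.17), or 3.41-fold, with adjusted p-values over all probe sets of 0.000575 and 0.000593. On the second, the WT livers read 10.23, 10.36 and 9.88 and the knockouts 8.66, 8.67 and 8.41, with no overlap. The call on the brightest probe set was lost without WT replicate 1 (adjusted p = 0.0509, and 0.0018 to 0.0509 over the 15 alternatives other than poly-A centring), with the difference at -1.08.

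Stat5a and Stat5b, which lie next to each other on chromosome 11 and encode the factors that carry the GH signal to the nucleus, differed according to the probe set read. On its brightest probe set Stat5a was 5.88, 5.91 and 6.05 log2 in WT and 5.68, 5.64 and 5.63 in knockout. The groups did not overlap, yet the difference of -0.29 (95% confidence interval -0.54 to -0.05, adjusted p = 0.0934) did not pass. Stat5b on its brightest probe set overlapped between the groups, at 6.65, 6.81 and 6.24 in WT and 6.39, 6.54 and 6.07 in knockout, a difference of -0.24 (-0.66 to 0.19, adjusted p = 0.395).

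The dimmer probe set of each STAT5 gene fell. For Stat5b it read 6.65, 6.77 and 6.63 log2 in WT and 6.14, 6.04 and 5.87 in knockout, 1.59-fold lower (-0.67, SE 0.12, limma adjusted p over all probe sets 0.00885). For Stat5a it read 4.13, 4.20 and 4.71 in WT and 3.33, 3.80 and 3.52 in knockout, 1.73-fold lower (-0.79, SE 0.18, adjusted p = 0.0222). Probe sets with a mean over all arrays below 3.58 log2 counted as dim and were not tested. The Stat5a probe set had a knockout mean of 3.55 and passed that filter only through its WT mean of 4.34. Its fall is therefore described and not read as support. Each gene therefore has 1 probe set that fell and 1 that did not pass. Stat5a fell when its probe sets were averaged (-0.54, adjusted p = 0.0234, and 0.0234 to 0.353 over the same 15 alternatives). That average includes the probe set that lay below the dim level in knockout. Stat5b did not pass when its probe sets were averaged (-0.45, adjusted p = 0.0589).

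Socs2 and Cish, the feedback inhibitors that STAT5 induces, varied more among WT livers than almost all other genes and did not pass the test. Socs2 read 8.65, 7.58 and 6.03 log2 in WT and 6.58, 6.71 and 5.43 in knockout on its brightest probe set. WT replicates 1 and 2 stood above every knockout liver and WT replicate 3 below 2 of the 3. The difference was -1.18 log2 (95% confidence interval -2.61 to 0.24, limma adjusted p = 0.213), and the WT SD of 1.32 log2 lay at the 99.8th percentile of all genes tested. Without WT replicate 3 the difference was -1.88 log2 and passed (adjusted p = 0.028), and without both arrays numbered 3 it was -1.47 and passed (0.027, and 0.027 to 0.517 over the 15 alternatives).

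The second Socs2 probe set showed the same order of WT livers, 8.34, 7.05 and 5.15 log2, against 5.34, 5.52 and 4.77 in knockout (-1.64, SE 0.67, limma adjusted p over all probe sets 0.128). The other tested probe set of Socs2 was level at 4.47 ± 0.26 log2 (SD, n = 3) in WT and 4.42 ± 0.16 in knockout (-0.05, SE 0.16, adjusted p = 0.842). The remaining 3 Socs2 probe sets, the only ones of the 23 below the dim level, read between 2.15 and 3.29 log2 on every array and were not tested.

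Cish, which blocks STAT5 docking at the receptor, overlapped fully between the groups. It read 7.49, 6.86 and 5.97 log2 in WT and 6.25, 6.70 and 6.84 in knockout, so the WT livers held both the highest and the lowest values. The difference was -0.18 log2 (95% confidence interval -0.99 to 0.63, limma adjusted p = 0.743), and it turned to 0.18 when WT replicate 1 was left out. Its WT SD, 0.76 log2, lay at the 98.8th percentile of all genes, and its knockout SD of 0.31 at percentile 89.2. A wide WT spread was not particular to the feedback inhibitors: the WT SD of Igfbp1, Igfbp2 and Igfals lay at percentiles 99.4, 99.1 and 98.2.

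**Figure D1:**
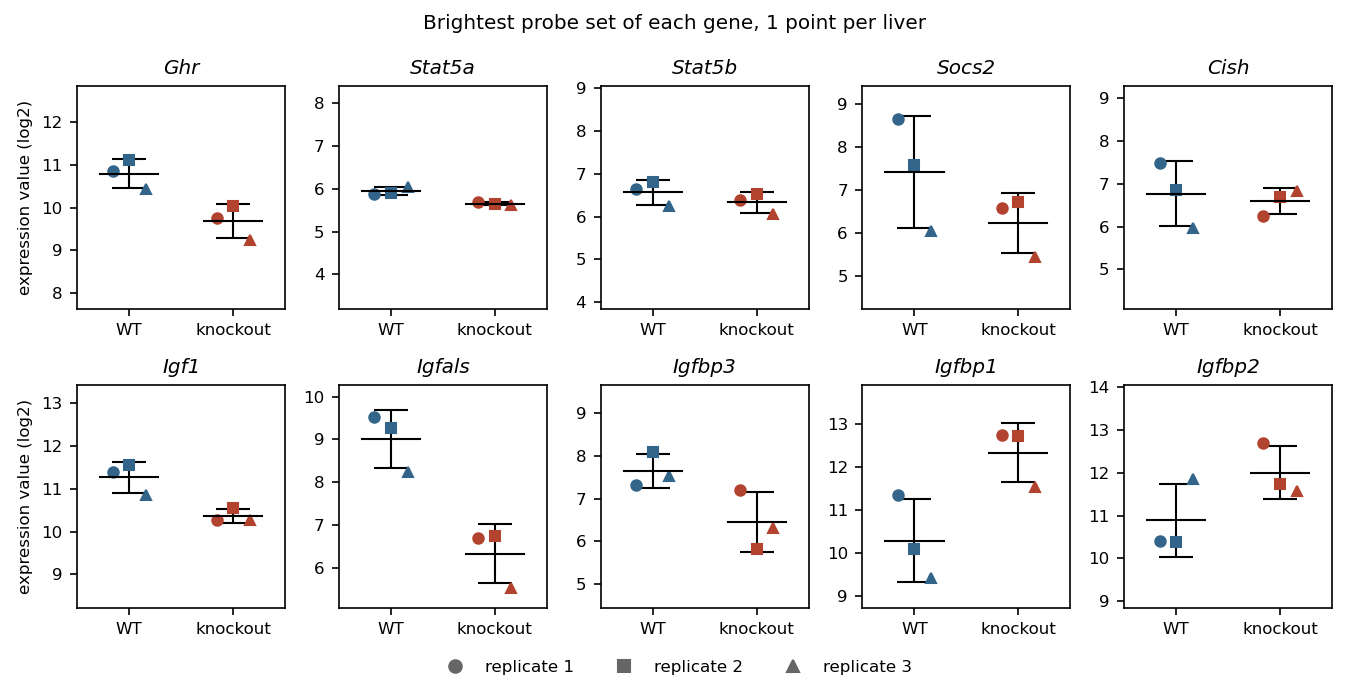
Expression value (log2, vertical axis) of the brightest probe set of each of the 10 genes in the 3 WT and 3 knockout livers, with 1 symbol per replicate, a long line for the mean and error bars for the SD; every panel spans the same number of log2 units. Igfals, Igf1, Ghr, Igfbp3 and Stat5a lie lower in every knockout liver, Igfbp1 higher, and Socs2, Cish, Igfbp1, Igfbp2 and Igfals spread widely among the WT livers.

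Igf1, the ligand of the axis, fell on all 4 of its probe sets, and in each of them every knockout liver lay below every WT liver. The brightest read 11.40, 11.55 and 10.86 log2 in WT and 10.26, 10.55 and 10.28 in knockout, a difference of -0.91 (SE 0.18, limma adjusted p = 0.0124). WT replicate 3 was the lowest WT liver on each of the 4. The second probe set, at 11.40, 11.44 and 10.89 in WT and 9.60, 9.89 and 9.79 in knockout, gave the widest difference, 2.80-fold (-1.48, SE 0.16, adjusted p over all probe sets 0.00106).

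The other Igf1 probe sets were 2.49-fold and 2.17-fold lower (-1.32 and -1.12 log2, limma adjusted p over all probe sets 0.00295 and 0.00724). The brightest probe set thus gave the smallest Igf1 fold of the 4, and the gene-level fold of 1.88 is at the low end of the range of 1.88 to 2.80. On that probe set the call was lost without knockout replicate 1 (adjusted p = 0.052, and 0.00269 to 0.052 over the 15 alternatives), with the difference at -0.86. Igf1 and Socs2 lie on chromosome 10, as does Sgpl1, with 368 and 416 protein-coding genes between Sgpl1 and each. A 129sv or C57BL6 origin of these stretches was not tested.

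Igfals, which encodes the acid-labile subunit that keeps IGF-I in the circulation, had the widest difference of the 10 genes. Its single probe set read 9.51, 9.26 and 8.24 log2 in WT and 6.70, 6.75 and 5.53 in knockout. The highest knockout liver thus lay below the lowest WT liver, and replicate 3 was the lowest of each group. The fall of 2.67 log2 (SE 0.41, 95% confidence interval -3.61 to -1.74) passed with an adjusted p of 0.00394 by limma, and it kept its call and direction under the 15 alternatives other than poly-A centring, between -3.06 and -2.28.

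Igfbp3, the binding protein of the same complex, fell on both of its probe sets, with differences of -1.19 log2 (SE 0.35, limma adjusted p = 0.0477) and -1.46 (SE 0.26, adjusted p over all probe sets 0.0078), or 2.29-fold and 2.75-fold. The brightest read 7.31, 8.08 and 7.54 in WT and 7.21, 5.82 and 6.32 in knockout. Knockout replicate 1 came close to the lowest WT liver, and the knockout SD of 0.71 lay at percentile 99.3 of all genes. The adjusted p lay just under the threshold, and the call was lost in 8 of the 15 alternatives: 2 centrings and leaving out any of the 3 WT livers, knockout replicate 2 or 3, or both arrays numbered 3 (adjusted p 0.0136 to 0.138, difference -1.57 to -0.88). The second probe set carries the s_at design name too.

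Liver Igfbp3 is a gene of non-parenchymal cells in textbook accounts, so markers of those cells are given beside it. Of the stellate cell markers 4 of 13 fell and 1 rose, and their mean level was 7.06 to 7.17 log2 in knockout and 7.43 to 7.54 in WT. Of the sinusoidal endothelial markers 2 of 10 rose and 1 fell (7.52 to 7.78 against 7.25 to 7.45), and of the Kupffer cell and macrophage markers 3 of 10 rose and 3 fell (7.82 to 8.01 against 7.63 to 8.29). The lowest markers, Ngfr of stellate cells and Timd4 of Kupffer cells, had knockout means of 4.40 and 4.34 log2, above the dim level. Of all genes tested, 8.09% fell and 10.5% rose. The part of these cells in the Igfbp3 result was not tested.

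Igfbp1, which lies next to Igfbp3 on chromosome 11 with 0 protein-coding genes between them, moved the opposite way. It read 11.35, 10.10 and 9.42 log2 in WT and 12.76, 12.72 and 11.55 in knockout. Every knockout liver lay above every WT liver, but WT replicate 1 and knockout replicate 3 differed by little, and the SD within each group was among the widest (0.98 in WT, percentile 99.4, and 0.69 in knockout, percentile 99.3). The rise of 2.05 log2 (SE 0.50, 95% confidence interval 0.91 to 3.20) had an adjusted p of 0.0253 by limma. It was lost without WT replicate 2 or 3 or knockout replicate 1 or 2 (adjusted p 0.00779 to 0.0968 over the 15 alternatives), with the difference positive in each, between 1.62 and 2.58.

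Igfbp2, a binding protein abundant in liver that fasting raises, was higher on average in knockout without passing the test. It read 10.41, 10.38 and 11.86 log2 in WT and 12.70, 11.74 and 11.56 in knockout. WT replicate 3 stood within the knockout range, and the 2 other WT livers lay below all knockouts. The difference was 1.12 log2 (95% confidence interval 0.11 to 2.12, limma adjusted p = 0.111). Without WT replicate 3 Igfbp2 was higher by 1.60 log2 and passed (adjusted p = 0.0148, and 0.00908 to 0.296 over the 15 alternatives), as it did without both arrays numbered 3 (1.82) and with array quality weights (1.36, adjusted p = 0.0396).

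**Figure D2:**
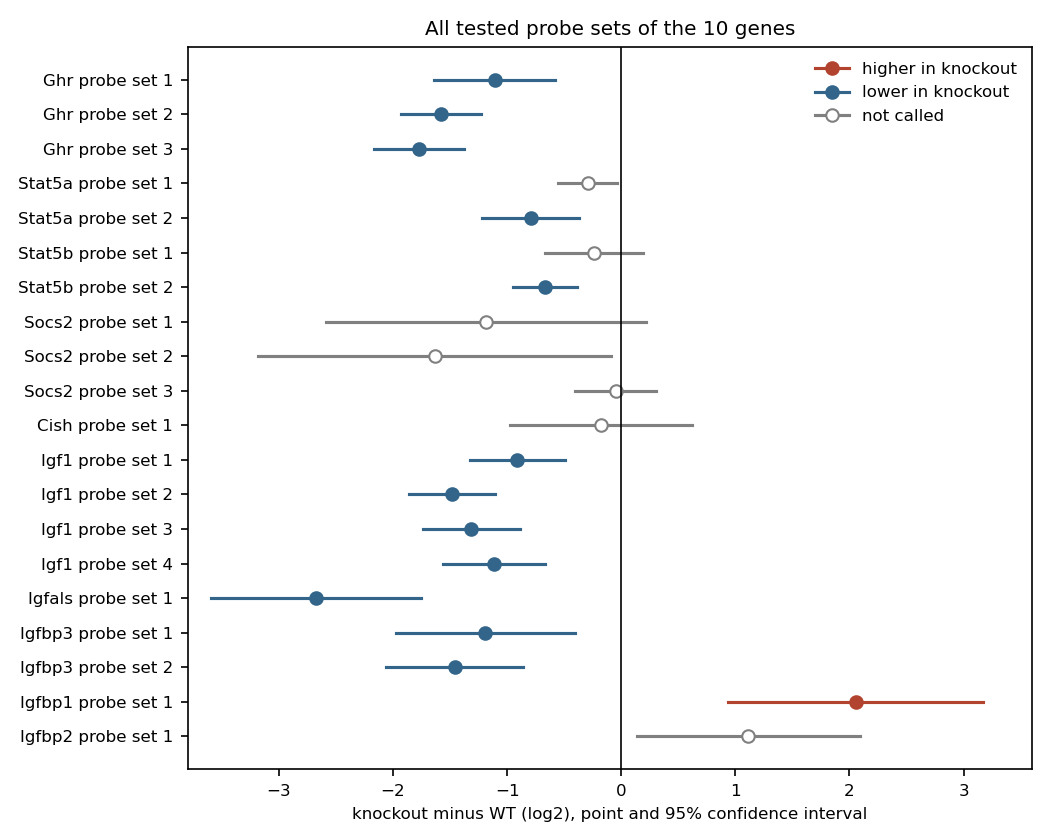
Difference between knockout and WT (log2, horizontal axis) for the 20 tested probe sets of the 10 genes, numbered from the brightest within a gene, as a point with its 95% confidence interval; filled points passed limma's test over all probe sets. All probe sets of Ghr, Igf1, Igfals and Igfbp3 lie left of 0, and the Igfbp1 probe set lies right of it.

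Counted by probe set, 12 of the 20 tested fell, 1 rose and 7 did not pass, where 7.82% of the 27022 probe sets tested fell, 10.1% rose and 17.9% changed in either direction. The 12 include the dimmer Stat5a probe set, which passed the dim filter only through its WT level. With the filter at percentile 60, 11 fell and 1 rose. Probe sets of a gene can read the same transcripts, so they are not counted as independent of each other. By the separation of single livers, 5 of the 10 genes had every knockout liver below every WT liver and 1 had every knockout liver above, against 21.8% and 19% of all genes. That separation was common in this table, at 40.8% of genes in either direction and 40% of probe sets (21.2% lower, 18.8% higher), so the 6 of 10 genes here are read against it.

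**Figure D3:**
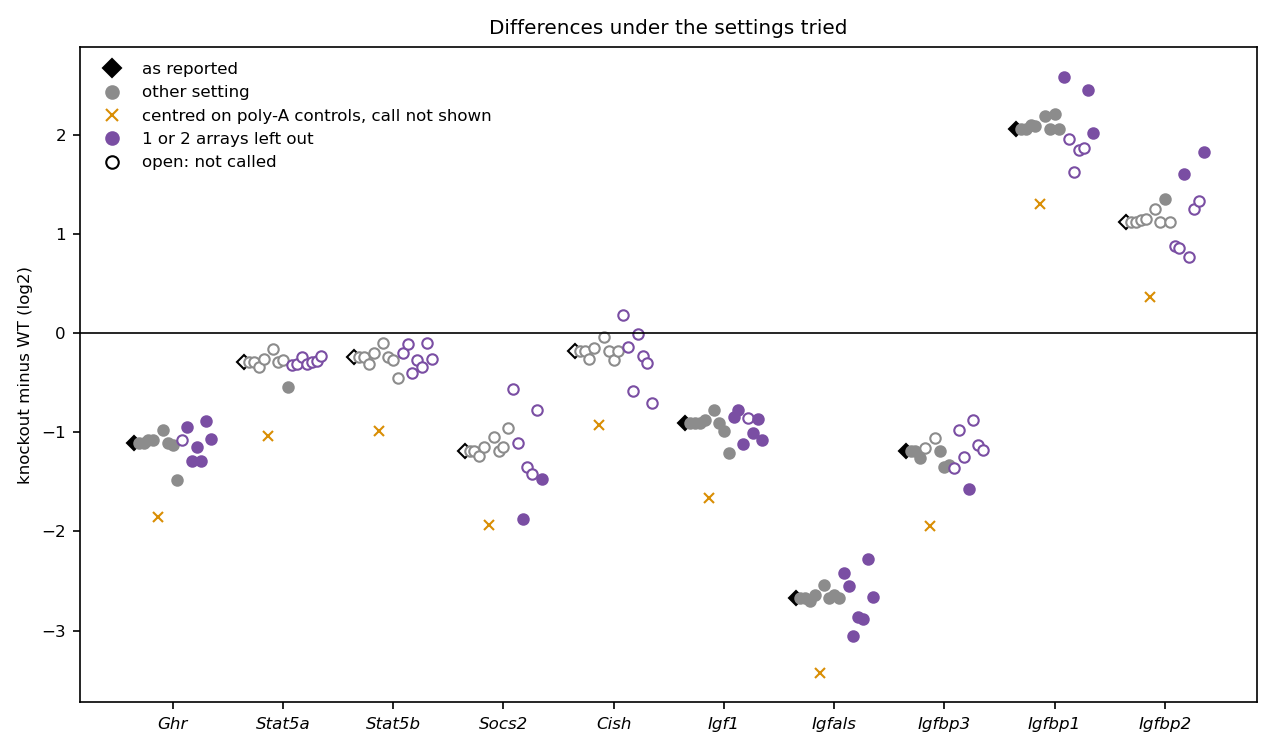
Difference between knockout and WT (log2, vertical axis) for the brightest probe set of each gene, as reported (diamond) and under the alternatives (circles, purple for 1 or 2 arrays left out, open where limma's test did not pass; orange crosses for centring on poly-A controls, with no call shown). Igfals is filled in every circle between -3.06 and -2.28, and Cish crosses 0 once, at 0.18.

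WT replicate 3 held the lowest WT value in 7 of the 10 genes, and in 35.4% of all genes. Knockout replicate 3 likewise held the lowest knockout value in 7 of the 10, and in 35.7% of all genes. Both were lowest together in 5 members, Ghr, Stat5b, Socs2, Igfals and Igfbp1, and in 14.3% of all genes. WT replicate 3 was the highest WT liver for Stat5a and Igfbp2. In Ghr, Igf1, Igfals and Igfbp2 it was thus the WT liver nearest to the knockouts, and in Igfbp1 the farthest from them. Without it, 5 members passed, Socs2 and Igfbp2 in place of Igfbp3 and Igfbp1. Without both arrays numbered 3, 6 members passed: Ghr, Igf1, Igfals and Socs2 were lower (-1.07, -1.07, -2.66 and -1.47 log2) and Igfbp1 and Igfbp2 higher (2.02 and 1.82).

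The 3 genes with profiles closest to a member's were found by the root mean square difference of values centred on each gene's own mean over the 6 arrays. For Igf1 they were Gm32461, 4930581F22Rik and Mcm10, at 0.104 to 0.111 log2, and Mcm10 encodes a DNA replication factor. For Ghr they were Magix, Mcm10 and Acsm5, at 0.143 to 0.146 log2. For Igfbp1 the closest was Ccng2, an atypical cyclin, at 0.341 log2, followed by Lrmp and Ip6k2 at 0.432 and 0.450. Ccng2 was higher in knockout by 1.81 log2. That direction follows from its choice by likeness to Igfbp1 on the same arrays and is not read as a result.

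Other genes of the GH, IGF and insulin receptor pathways moved both ways. Of 33 listed, 32 were tested, 8 rose, 3 fell and 21 did not pass (limma), with a median difference of 0.18 log2. The shares over all genes tested were 10.5% higher and 8.09% lower. Ptpn1, a phosphatase that acts on JAK2 and the insulin receptor, rose by 1.52 log2 (SE 0.12), and Socs3, an inhibitor of cytokine and GH receptors, by 2.11 (SE 0.21). Socs3 rose from a low WT level of 4.78 log2, and its 2 other tested probe sets rose too. With probe sets averaged, Socs3 rose by 1.39 and Ptpn1 by 1.04. Igf1r, the IGF-I receptor gene, rose by 1.04 (SE 0.13) from a low WT level of 5.02 log2, though its other tested probe set did not pass. Irs1, the adaptor of insulin and IGF-I receptors, fell by 1.55 (SE 0.14). The adjusted p-values of these 4 were 0.00164 or lower.

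Further members of the pathway, named after their values were seen, were Jak2, the kinase of the GH receptor, which rose by 0.40 log2 (SE 0.11, limma adjusted p = 0.0418), and Foxo1, an insulin-restrained transcription factor that acts on the Igfbp1 element, which rose by 1.20 (SE 0.26, adjusted p = 0.0173). Stat3, a factor of the IL-6 family, rose by 0.97 (SE 0.15). Igfbp5 fell by 0.96 (SE 0.25, adjusted p = 0.0348), while Igfbp4 was level at 12.24 log2 in both groups. Igf2, the other IGF ligand, was 0.95 higher (SE 0.48, adjusted p = 0.203) and Insr 0.06 higher (SE 0.13), and neither passed. The count of 11 changed genes was 7 without WT replicate 1 or 2 or knockout replicate 1 or 2, of which 5 or 6 were higher. The rise of Jak2 is smaller than the 0.75 log2 by which the poly-A scale lowers every gene, so its direction flips there.

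Among liver genes whose sex difference depends on GH, those that passed were lower, where 8.09% of all genes tested fell and 10.5% rose. Among male-biased genes 2 of 9 tested fell and none rose (median -0.52 log2), C6, a complement component, by 0.68 (SE 0.15) and the steroid dehydrogenase gene Hsd3b5 by 1.24 (SE 0.34). Among female-biased genes 4 of 11 fell and none rose (median -0.77): Hao2 by 2.71 (SE 0.30), Acot3 by 1.64 (SE 0.26), Cyp3a44 by 1.26 (SE 0.30) and Atp6v0d2 by 0.77 (SE 0.22), whose other tested probe set did not pass. The only tested Acot3 probe set carries the s_at design name, so it may cross-hybridise with transcripts of related genes. Both counts rest on single arrays: the male-biased count fell to 0 when knockout replicate 2 was left out and to 1 for knockout replicate 3, and reached 4 when WT replicate 3 was left out, and the female-biased count was 2 without WT replicate 1 or knockout replicate 2 or 3. Cyp2b9 and Cyp2b13, both of the female-biased list and named after their values were seen, did not pass (adjusted p = 0.818 and 0.113). Cyp2b13 read 8.10, 7.40 and 4.09 log2 in WT and 4.41, 4.28 and 4.14 in knockout, so WT replicate 3 lay at the knockout level. Without both arrays numbered 3, 1 male-biased gene rose and 4 fell, and 4 female-biased genes fell. Xist, expressed in females, read 10.72 to 10.95 log2 in WT and 11.09 to 11.41 in knockout. It was 0.46 higher (SE 0.12, limma adjusted p = 0.0321), a direction that flips on the poly-A scale. The Y-linked Eif2s3y, Kdm5d and Uty were below the dim level on all 6 arrays at 1.99 to 3.08 log2. All 6 arrays thus read as female, so the male-biased genes were read in female liver.

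Genes that respond to fasting, stress and inflammation, states in which Igfbp1 is known to rise, were read beside it. Over all genes tested, 10.5% rose and 8.09% fell. Of the fasting and gluconeogenesis genes 3 of 10 rose and none fell (limma): Angptl4 by 0.94 log2 (SE 0.19), Pdk4 by 1.24 (SE 0.30) and the coactivator gene Ppargc1a by 1.66 (SE 0.46). The rate-setting gluconeogenic genes Pck1 and G6pc, named after their values were seen, differed by 0.21 (SE 0.22) and -1.14 (SE 0.71) and did not pass. Fgf21, a liver hormone that fasting raises, also named after its values were seen, was lower in each knockout liver than in each WT liver and did not pass (-0.64, SE 0.19, adjusted p = 0.0504). The count was 1 higher and 2 lower without WT replicate 1, 1 higher without WT replicate 2 or knockout replicate 1, and 0 without knockout replicate 2, while array weights gave 3 higher and 2 lower and averaged probe sets 4 higher and 1 lower.

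Of the amino acid and endoplasmic reticulum stress genes 4 of 9 rose and none fell, Asns, Atf3, Nupr1 and Ddit3, by 1.02 to 1.12 log2 (limma adjusted p 0.00325 to 0.0199), though the other tested probe set of Ddit3 did not pass. Of the acute phase and IL-6 family genes 10 of 14 rose and none fell (median 2.20 log2), the widest being Orm2 at 7.06 (SE 0.34), Lcn2 at 5.95 (SE 0.34), Saa3 at 5.69 (SE 0.39) and Saa1 at 5.47 (SE 0.41). Of the fetal liver genes only Gpc3, a glypican, rose, by 2.53 (SE 0.32), 1 of 5 tested, where 10.5% of all genes rose. Without knockout replicate 3 or without both arrays numbered 3, 2 fetal liver genes rose.

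Markers of other cells in the tissue were also read, beside 8.09% of all genes tested that fell and 10.5% that rose. Hepatocyte markers fell in 2 of 9 cases (median -0.14 log2), with mean levels of 13.45 to 13.48 in knockout and 13.59 to 13.60 in WT. Alb and Apoa1 among them read 14.27 to 14.32 log2 on average, and saturation was not tested. Neutrophil markers rose in 8 of 8 cases (mean 9.58 to 9.98 against 5.43 to 5.75). B and T cell markers rose in 3 of 5, all of them B cell genes (Ms4a1, Cd79a and Cd79b). The T cell genes Cd3e and Cd8a were lower in knockout (-0.28 and -0.15 log2) and did not pass. The 4 cholangiocyte markers tested did not pass (median -0.09 log2). The part of these cells in the results for the axis was not tested. With the arrays centred on the hepatocyte markers, Igf1, Igfals, Ghr and Igfbp1 kept their calls and Igfbp3 did not, with its difference at -1.06 (SE 0.34, adjusted p = 0.0597) against -1.19 as deposited.

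**Figure D4:**
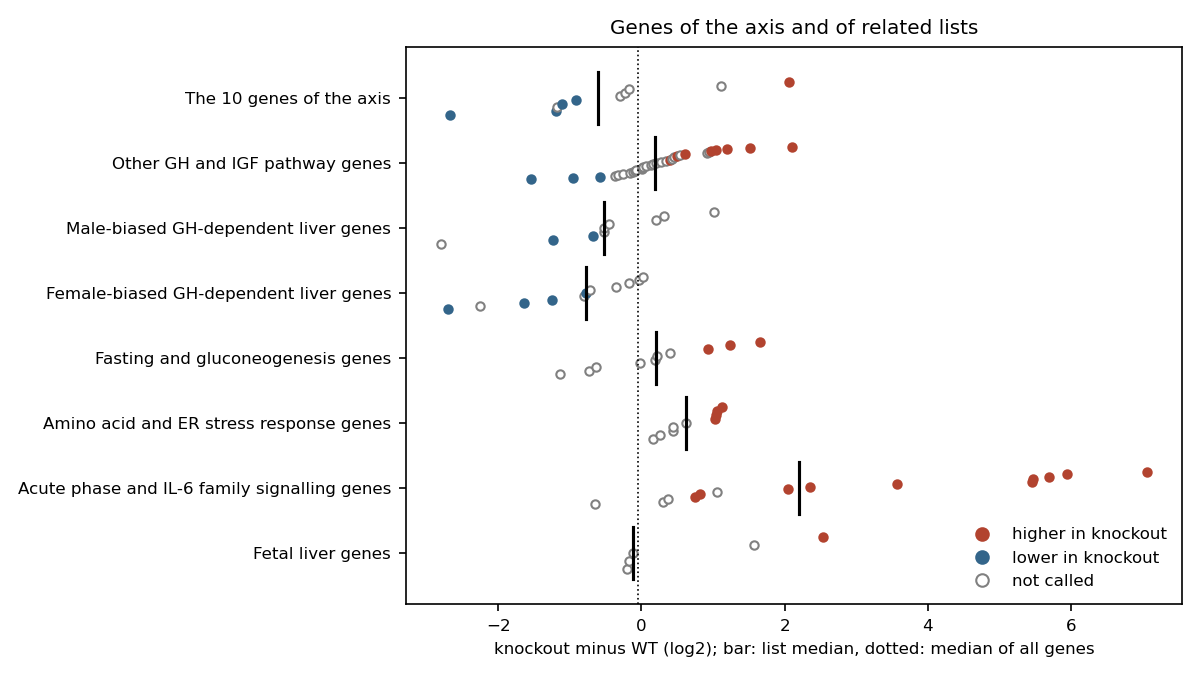
Difference between knockout and WT (log2, horizontal axis) for each tested gene of the axis and of the related lists, 1 point per gene; filled points passed limma's test over all genes, bars mark list medians and the dotted line the median of all genes. The lists of male-biased and female-biased genes have medians of -0.52 and -0.77, and the acute phase list reaches 7.06.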

How the data were processed

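Total RNA of 6 mouse liver samples was extracted with TRIzol and biotin-labelled, per the labels' protocols. The authors deposited 1 log2 value per probe set and array. That the scale is log2 was taken from the range of values. MAS5 is named per the submitters' processing notes, with no version or role. No source used here states the background correction or scaling. No detection calls were used, so weak signal and background are not separable.

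Genotypes come from the labels, and replicate numbers, given in accession order, only name samples. Control probe sets (64) and those whose mean lay below percentile 40 (3.58 log2) were excluded. A gene was read by its brightest remaining probe set with exactly 1 symbol (34958 probe sets had 1, 932 several, 9211 none listed), which gave 13370 genes. The probe sets read for Foxo1, Igfbp5, Angptl4 and Xist also carry the s_at design name. Limma 3.58.1 in R 4.3.3 (lmFit, eBayes with intensity trend, two-sided, no covariates) was fitted over all genes and again over all 27022 probe sets, with Benjamini-Hochberg adjustment and a threshold of 0.05. The fits were tested on simulated data. The number of arrays limits the precision.

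The members and lists were chosen with earlier results of these data known. Named are the 10 members, Sgpl1, up to 4 genes per list with the smallest adjusted p, sex-linked genes and the 3 closest profiles for Igf1, Ghr and Igfbp1. Jak2, Foxo1, Stat3, Igfbp4, Igfbp5, Igf2, Insr, Pck1, G6pc, Fgf21, Cyp2b9, Cyp2b13 and Cd8a were named outside that rule. Alb, Apoa1, Ngfr and Timd4 were named for their level. Alternatives were other filters, quantile normalization, centring on medians, poly-A controls or hepatocyte markers, no trend, array weights, averaged probe sets and leaving out each array, or both arrays numbered 3.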

Additional observations from a re-analysis of the deposited data

How the results depend on the processing

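The number of changed members, 5, lay between 3 and 5 when single arrays were left out, and it was 9 (1 higher, 8 lower) with arrays centred on poly-A controls. That scale lowers every gene by 0.75 log2, and its fit gave nearly every gene the same SE (0.241 to 0.252 from percentile 5 to 95) whatever its own spread, so its calls follow from its construction and none is read as support. By probe set it was 13, and 10 to 15 over the alternatives other than poly-A centring. Among all genes 2482 changed, 1339 to 2381 with single arrays left out and 10497 on the poly-A scale, of which 96.4% were lower, against 43.6% as deposited, 38.1% with median centring and 21.7% with centring on hepatocyte markers. The poly-A control mean varied among the knockout arrays (8.52 to 9.07 log2). Leaving out both arrays numbered 3, chosen after seeing the data, gave 2251 changed genes, 6 members and 14 member probe sets. Of the called members, over the 15 alternatives other than poly-A centring, Igfals kept its call in 15, Ghr and Igf1 in 14, Igfbp1 in 11 and Igfbp3 in 7. Cish turned from -0.18 to 0.18 without WT replicate 1 and ranged from -0.58 to 0.18 with single arrays left out, and the cause was not tested. The male-biased count was 1 with the filter at percentile 60 or with centring on hepatocyte markers. No paired analysis was possible because the labels give no replicate numbers that groups share. Signal over background is unknown for every probe set.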
